A study of Amphimedon queenslandica with 43 samples.

Results

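Constant light and constant dark were compared in larvae of the demosponge Amphimedon queenslandica at 9 hours post emergence (hpe), the age the study took to stand for larvae competent to settle. The comparison sets 7 larvae of each regime against each other, 14 of the 43 of the series, chosen by their labels alone. The other larvae entered the model fits through the filter on low counts, the scaling and the shared estimate of spread. Larvae were collected over 30 minutes from 11 am and were under their regime by 0.5 hpe. Constant light came from a full-spectrum fluorescent tube, and constant dark was a neutral density filter that still passed 6.6% of ambient daylight, so it was dim rather than without light. Each library came from a single whole larva, and the labels give no strain, parent or treatment other than light. The other groups served as reference, with 7 larvae of each regime at 1 hpe, taken as not yet competent, and 7 and 8 larvae under natural day-night light at 1 and 9 hpe. Since all larvae were collected from one hour of the day, age and time of day cannot be told apart.

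Sponge larvae have no neurons. The Amphimedon larva swims with cilia and steers away from light with a ring of pigmented cells with long cilia at its posterior pole, where a cryptochrome, a blue-light receptor, is expressed. A larva must become competent before it can answer a settlement cue and begin metamorphosis. The study asked how the light around the larva bears on that transition. The measurement here is the transcript count, by CEL-Seq2, a barcoded method that tags transcripts at their 3' ends. Counts are given per transcript model, a predicted transcript known here by its identifier only. Since 0 identifiers matched the reference gene table, no model is given a gene name or function, no list of photoreceptor, ciliary or cell type genes was analysed, and the larval cell types were not checked against markers. At most 2 models in each direction are therefore named for a comparison. Levels are in CPM, counts scaled to a library of 1000000 with TMM factors, which correct for a few abundant transcripts taking up a library.

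The 14 libraries held 2093537 to 3677302 counts. Light larvae at 9 hpe averaged 3212744 ± 383430 counts (SD, n = 7) and dark larvae 2508172 ± 462633 (n = 7), a ratio of 1.28 (exact two-sided permutation test of log10 totals, p = 0.00991, adjusted p = 0.0297 over 3 values per larva). Light larvae ran from 2660350 to 3677302 and dark larvae from 2093537 to 3485926. Dark replicate 7 stood apart with the highest dark total, and without it the difference of log10 totals was 0.14 instead of 0.11. At 1 hpe the regimes differed by 0.0058 (exact permutation p = 0.833). The test of the change in that difference between ages gave an adjusted p of 0.0614 (exact permutation). In whole larvae, fewer cells of a type and less RNA per cell cannot be told apart, and the part of sequencing effort in these totals was not tested.

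The number of models with a count was 21055 ± 871 in light larvae and 20432 ± 770 in dark larvae (n = 7 each, exact permutation p = 0.179). Thinned to a single depth of 1890954 counts, the means were 19304 and 19537 (exact permutation p = 0.386), so the sign of the difference turned. Models seen in every larva of a regime and in none of the other were few. Counts were found in all 7 light larvae and no dark larva for 2 models, and in all 7 dark larvae and no light larva for 0. With at least 5 larvae on one side, the numbers were 39 for light and 23 for dark, out of 33465 models with a count in the 14 larvae.

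Larvae of both regimes fell into sets with alike profiles that the labels do not give. Profiles were compared as deviations of log2 CPM from the mean of all larvae of that age, and larvae were joined by average linkage at a distance of 0.9, which gave 9 sets of at least 2 of the 43 larvae. The largest correlation between dark larvae was 0.266, for replicates 2 and 3, and between light larvae 0.214, for replicates 2 and 7. A set of 8 larvae held 4 of the 7 light larvae at 9 hpe, replicates 2, 3, 5 and 7, with 3 dark larvae and 1 light larva at 1 hpe, and 0 dark larvae at 9 hpe. The single set that held both regimes at 9 hpe joined light replicate 4 with dark replicates 2 and 3. On the first principal component of the 14 larvae, with 12.7% of the variance, light replicates 2, 3, 5 and 7 lay at 38.5 to 66.1 and light replicate 4, at -22.6, lay among the dark larvae, which ran from -45.5 to -2.81. Regime and set thus coincide in part. Deviations from the age mean keep the difference between regimes, so larvae of a regime can be alike through it. Deviations from group means lower correlations within a group by their making. They gave -0.0338 for light replicates 2 and 7 and 0.116 for dark replicates 2 and 3. How far the regime itself formed the sets was not tested. Results that changed when refitted with the sets are given with both values.

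**Figure D1:**
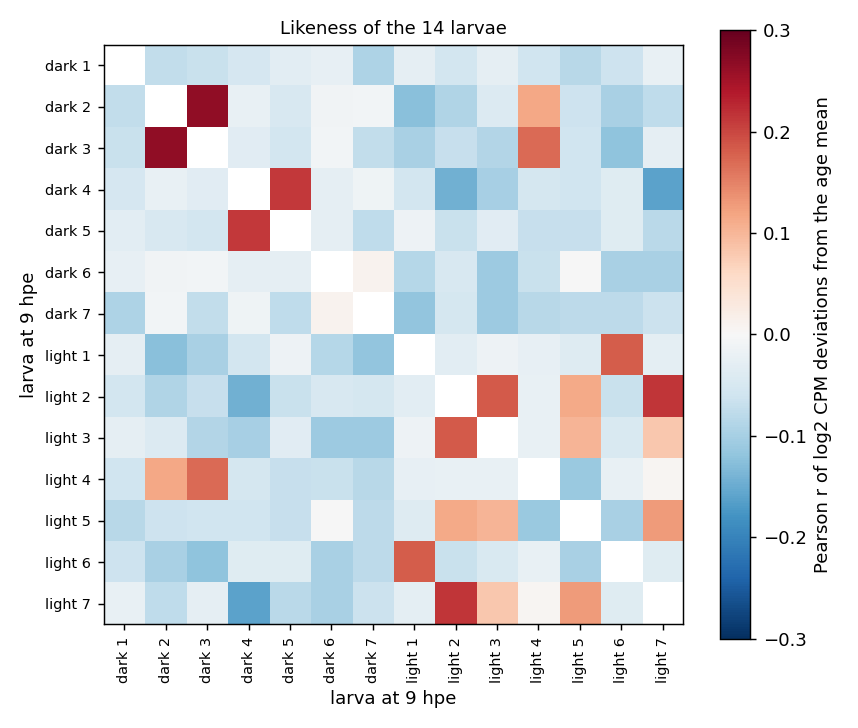
Pearson correlation between the 14 larvae at 9 hpe of their log2 CPM deviations from the mean of all larvae of that age, over 14188 models, with the diagonal left blank. Dark replicates 2 and 3 are the most alike pair at 0.266, light replicates 2, 3, 5 and 7 form a block, and light replicate 4 is closer to dark replicates 2 and 3 than to any other light larva.

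In constant light 97 models were higher and 19 lower than in constant dark, 0.818% of the 14188 tested (edgeR quasi-likelihood F test across all models, Benjamini-Hochberg adjusted p below 0.05), which is 0.684% higher and 0.134% lower. Before adjustment 1750 models, 12.3%, had a p below 0.05. The higher models were mostly abundant, and the lower models were mostly scarce and differed by a larger fold. The 97 had a median level of 7.07 log2 CPM over the 14 larvae against 4 for all tested models, and 60.8% of them averaged at least 100 CPM, against 16.8% of all tested. The 19 had a median level of 2.39 log2 CPM, and 1 of them averaged at least 100 CPM. The median difference was 1.8-fold for the 97 and 3.64-fold for the 19, against 1.21-fold in either direction for all tested models. At least a 2-fold difference was found for 39 of the 97, 18 of the 19 and 1488 of all 14188. The calls rest on this same fold change, and scarce models need a larger one to pass, so the choice of the models favours these orders. Of the 97, 91 had a count in every one of the 14 larvae, so that their difference was one of level. The same held for 11900 of all 14188 tested models. Together they made up 25596 ± 4220 CPM in light larvae and 13820 ± 1540 CPM in dark larvae (n = 7 each), a sum that the choice of the models itself sets apart.

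Of the 116 models, 55 were still called when any single one of the 14 larvae was left out, 51 of the higher and 4 of the lower ones. Their number became 199 without light replicate 5, 212 without dark replicate 1, 73 without dark replicate 2 and 77 without dark replicate 4. With only the 14 larvae in the fit it was 28, with 26 higher and 2 lower, of which 25 were among the 116. With sets of alike larvae as a term it was 20, with 18 higher and 2 lower, for sets from deviations from group means. For the sets described above, added after the data were seen, it was 24, with 23 higher and 1 lower, of which 22 were among the 116. Those sets were formed from deviations that keep the regime difference, so the term can take up part of it. Of lower models, 1 or 2 were thus called in these 3 fits, against 19. Larvae that are alone in a set (light replicate 1 and dark replicate 6 at this age) carry no weight in the fit with these sets. Without light replicates 2, 3, 5 and 7 the number called was 59, of which 39 were among the 116. That fit set 3 light larvae against 7 dark larvae. With library totals in place of TMM, 65 were higher and 34 lower, and DESeq2 called 217 higher and 95 lower.

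**Figure D2:**
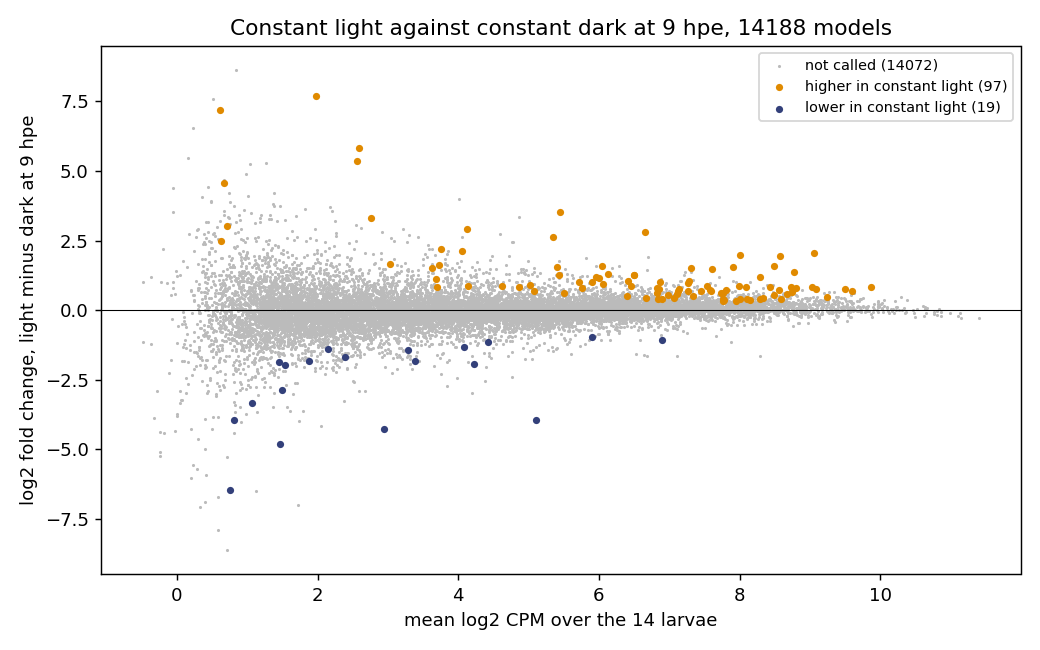
Log2 fold change of constant light over constant dark at 9 hpe against the mean log2 CPM over the 14 larvae, one point per tested model. The 97 higher models lie mostly at high levels with small fold changes and the 19 lower models mostly at low levels.

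CPM values did not overlap between the regimes at all for 52 models that were higher in light (0.367% of those tested) and for 16 that were lower (0.113%). Of the 97 and the 19 called models, 29 and 6 were of this kind. The number of models without overlap, 68 in all, became 119 without light replicate 4, 139 without light replicate 5 and 122 without dark replicate 1. For 68 of the 97 higher models the model with the next number was also tested, and in 7 cases, 10.3%, that model was higher as well, against 0.684% of all tested models. Models with consecutive numbers may overlap, and whether the counting could split reads between them was not tested. Models of the TCONS series made up 4 of the 97 and 0 of the 19, against 2.56% of all tested. The highest deposited count was 8192, a value that 0 of the 14 larvae reached for any model. A level of 4096 counts was reached by 2 of the 116 called models and by 75 of all 14188 tested.

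Aqu2.1.21224_001 had the largest fold change among higher models that passed the rule for naming. In light larvae it stood at 13.1 CPM at the lowest, 37.8 at the median and 58.4 at the highest, and in dark larvae at 0, 0.327 and 3.61. All light larvae lay above all dark larvae, 3 of which had no count. The log2 fold change was 5.82 (SE 0.785, adjusted p = 8.32e-06 by edgeR). Dark replicate 6 held 8 of the 11 counts of all dark larvae, and without it the log2 fold change was 7.38 (adjusted p = 3.94e-07 by edgeR). With the sets of alike larvae as a term it was 7.45 (adjusted p = 0.00297 by edgeR), and with those from group means 6.99 (adjusted p = 0.00254 by edgeR). At 1 hpe it was low in every regime, with means of 0.24 CPM in light, 1.25 in dark and 0.574 in day-night larvae. Day-night larvae at 9 hpe held 77.4 ± 32.9 CPM (n = 8), with the lowest at 41, above the light median. This model rose with age under day-night light (log2 fold change 7.06 with SE 0.81, adjusted p = 1.17e-08 by edgeR) and under constant light (7.04 with SE 0.86, adjusted p = 5.25e-07 by edgeR). In constant dark its change with age was -0.95 (SE 0.84, adjusted p = 0.471 by edgeR).

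Aqu2.1.32921_001 was also higher in light, but it fell with age in dark and day-night larvae. Light larvae at 9 hpe held 58.6 CPM at the lowest, 150 at the median and 244 at the highest, and dark larvae 8.08, 11.8 and 19.8. The regimes did not overlap, and the log2 fold change reached 3.52 (SE 0.28, adjusted p = 7.01e-12 by edgeR). At 1 hpe all regimes were at a high level, with 233 ± 44.8 CPM in light, 298 ± 93.5 in dark and 280 ± 76.6 in day-night larvae (n = 7 each). By 9 hpe dark larvae had fallen to 13.3 ± 4.07 CPM (log2 fold change -4.48 with SE 0.29, adjusted p = 4.98e-15 by edgeR) and day-night larvae to 57.2 ± 21 CPM (n = 8, -2.29 with SE 0.25, adjusted p = 2.37e-09 by edgeR). In light larvae the change with age, -0.61 ± 0.25 SE, did not pass (edgeR adjusted p = 0.142). With the set of alike larvae as a term the light-to-dark log2 fold change of this model was 2.66 (edgeR adjusted p = 0.000229).

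Aqu2.1.40667_001 was lower in light. Light larvae held 3.74 CPM at the lowest, 8.62 at the median and 21.2 at the highest, and dark larvae 80.6, 143 and 250. There was no overlap, and the log2 fold change was -3.95 (SE 0.46, adjusted p = 3.11e-07 by edgeR). The model rose with age in dark larvae from 6.86 ± 3.41 to 146 ± 56 CPM and in day-night larvae from 12.7 ± 7.8 to 150 ± 42.6 CPM. In light larvae the means were 13.1 ± 7.18 CPM at 1 hpe and 9.37 ± 6.29 CPM at 9 hpe (edgeR adjusted p = 0.601). The rise passed in dark (log2 fold change 4.41) and in day-night larvae (3.56), and the shift in the light-to-dark difference between ages is given with the test of that shift.

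Aqu2.1.31817_001 was the other lower model named. All light larvae at 9 hpe lay between 0.936 and 2.43 CPM, with a median of 1.55. Dark larvae had a median of 30.4 CPM and ran up to 66.8, but replicate 5 stood at 1.9, inside the range of the light larvae. The log2 fold change was -4.26 (SE 0.84, adjusted p = 0.00426 by edgeR), while the adjusted p was 0.328 with limma voom. This model had both high and low larvae in the other groups too. Dark larvae at 1 hpe ran from 2.15 to 56.6 CPM with a median of 3.46, light larvae at 1 hpe from 1.64 to 77.1, and day-night larvae at 9 hpe from 0.614 to 75.1. All 4 larvae at 1 hpe of the set that holds light replicates 2, 3, 5 and 7 were low, at 3.46, 2.15 and 4.52 CPM in dark and 1.64 CPM in light. Dark replicates 4 and 7 at 1 hpe, outside that set, were low as well, at 2.99 and 3.4 CPM. With the set as a term the log2 fold change was -4.12 (edgeR adjusted p = 0.239), and without the 4 light larvae of that set it was -4.44 (edgeR adjusted p = 0.16).

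**Figure D3:**
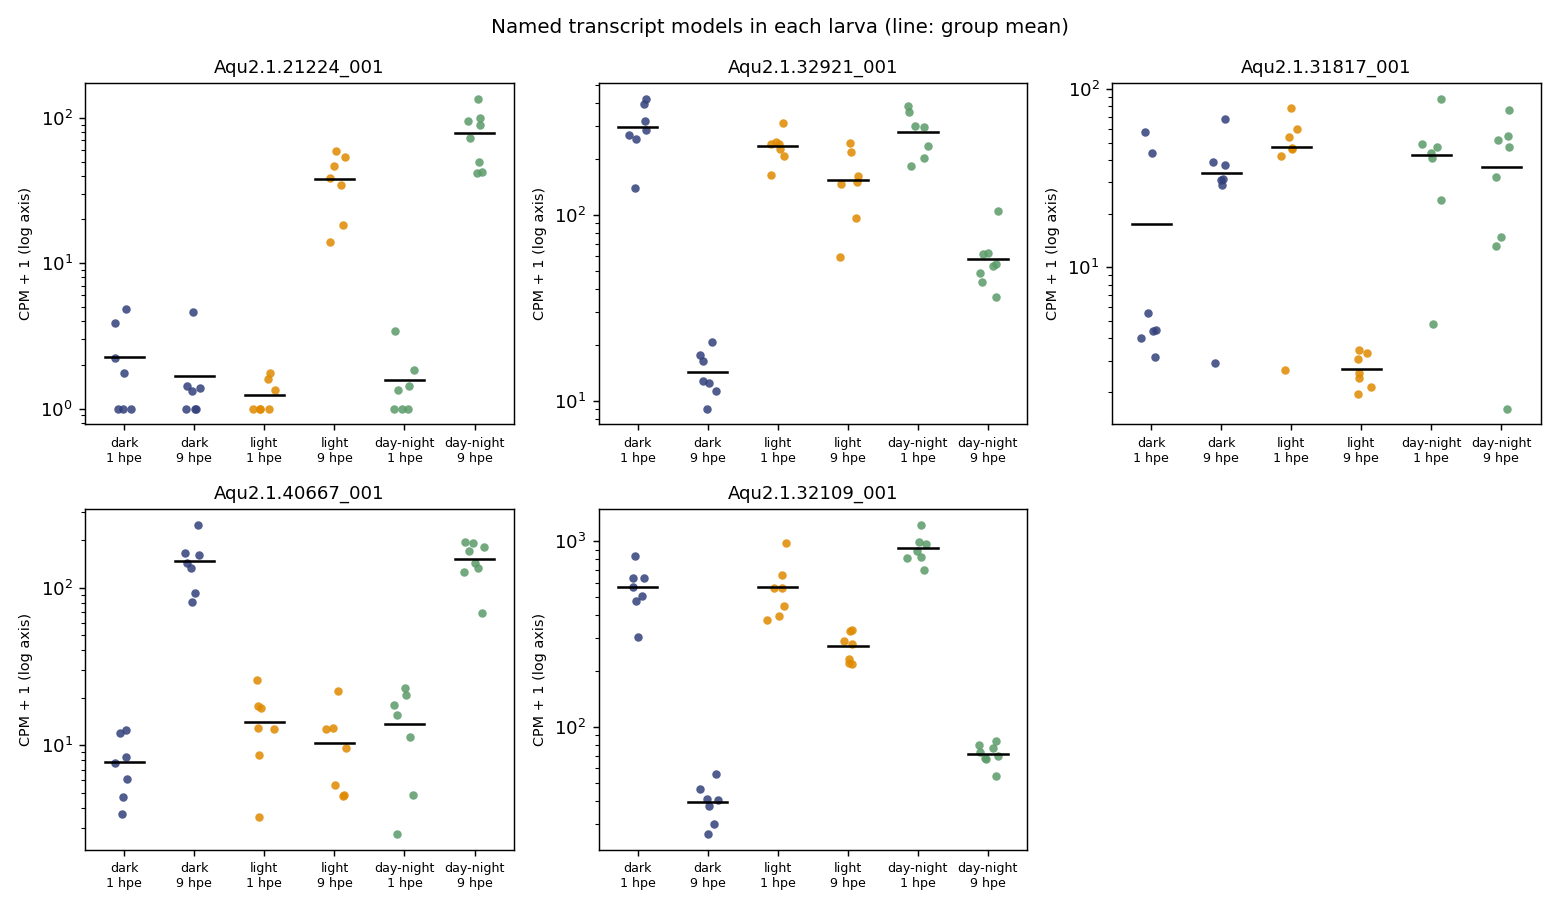
CPM plus 1 on a log axis of the 5 named models in each of the 43 larvae, by regime and age, with a line at the group mean. Aqu2.1.21224_001 is near 0 in dark larvae at both ages, and Aqu2.1.32921_001 falls furthest in dark larvae. Aqu2.1.32109_001 falls further in dark and day-night larvae than in light larvae. Aqu2.1.40667_001 rises in all groups at 9 hpe except light, and Aqu2.1.31817_001 has high and low larvae in most groups.

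Day-night larvae, whose levels form no part of the light-to-dark contrast but which share its filter, scaling and estimate of spread, were used to sort the 97 higher models by their change from 1 to 9 hpe. In day-night larvae 63 of the 97 fell, 64.9% against 12.1% of all tested models, and 21 rose, 21.6% against 9.94%. The remaining 13 passed in neither direction. Abundant models are called more easily, and among tested models that averaged at least 100 CPM, 27.3% fell and 11.1% rose in day-night larvae, against 72.9% and 15.3% of the 59 higher models at that level.

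The 63 models that fell in day-night larvae had overlapping levels in all regimes at 1 hpe. The median over them in a larva was 8.03 to 8.4 log2 CPM in dark, 8.13 to 8.49 in light and 7.98 to 8.33 in day-night larvae at 1 hpe. At 9 hpe it was 6.61 to 7.32 in dark and 6.59 to 7.14 in day-night larvae, and 7.24 to 8.16 in light larvae. Light larvae thus lay above all day-night larvae for this group, and dark and day-night larvae covered nearly the same range. The choice of the models, by a higher level in light than in dark and a fall in day-night larvae, favours this order. Over all 1717 tested models that fell in day-night larvae, the median of the group means at 9 hpe was 5.815 log2 CPM in light larvae. It was 5.586 in dark and 5.414 in day-night larvae. Each regime's own test of age shares its 9 hpe larvae with the comparison that chose the models. It called 63 of the 63 as fallen in dark, where 10.6% of all tested models fell, and 25 in light, where 3.48% did. The 63 had been sorted by a fall in day-night larvae, and of all 1717 tested models with that fall, 1003 fell in dark and 355 in light.

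The 21 models that rose in day-night larvae ranked otherwise. Their median in a larva at 9 hpe was 7.61 to 8.03 log2 CPM in day-night, 6.63 to 7.23 in light and 5.39 to 5.96 in dark larvae, and the day-night mean was above the light mean for 21 of the 21. At 1 hpe the ranges were 5.89 to 6.46, 5.75 to 6.26 and 5.65 to 6.3. Light larvae stood between the other regimes for these models. Their choice, by a rise in day-night larvae and a higher level in light than in dark, favours this order. Over all 1410 tested models that rose in day-night larvae, the median of the group means at 9 hpe was 5.392 log2 CPM in day-night larvae. It was 5.061 in light and 5.198 in dark larvae. The tests of age within each regime share larvae with the comparison. They called 15 of the 21 as risen in light, where 2.63% of all tested models rose. In dark they called 7 as risen and 6 as fallen, where 9.39% of all tested models rose. Of all 1410 tested models that rose in day-night larvae, 218 rose in light, and 666 rose and 12 fell in dark.

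The 19 lower models were divided, with 3 that rose, 1 that fell and 15 that passed in neither direction in day-night larvae. Their median in a larva at 9 hpe was 1.36 to 2.26 log2 CPM in light, 2.82 to 3.92 in dark and 2.95 to 3.93 in day-night larvae. At 1 hpe it was 2.86 to 3.48 in light and 2.14 to 3.02 in dark larvae. For 14 of the 19, the day-night mean at 9 hpe lay between the light and dark means, as it did for 4739 of all 14188 tested models, and a wide gap between light and dark leaves more room for this.

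**Figure D4:**
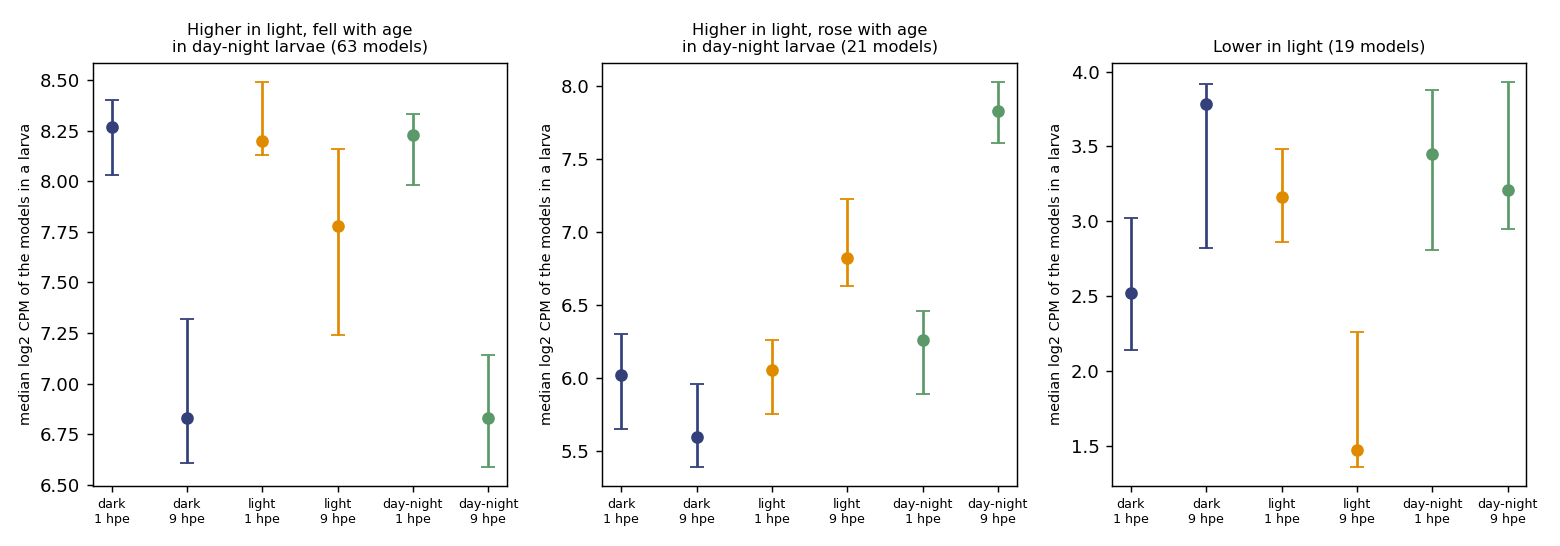
Median log2 CPM of 3 groups of called models in a larva, by regime and age. Points are the median over the larvae of a group and bars run from the lowest to the highest larva. The 63 models that fell in day-night larvae keep a higher level in light larvae at 9 hpe, the 21 that rose in day-night larvae are intermediate in light larvae, and the 19 lower models are lowest in light larvae at 9 hpe. Light and dark larvae at 9 hpe chose the models, and day-night larvae of both ages sorted the higher ones, which favours these orders.

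At 1 hpe light and dark larvae differed in 21 models, 0.148% of those tested, with 10 higher in light (0.0705%) and 11 lower (0.0775%). By edgeR 0 of the 116 models were among them, by limma voom 0 and by DESeq2 1. The median log2 fold change at 1 hpe was -0.07 for the 97 and 0.33 for the 19, against 0.00267 for all tested models, and the 1 hpe larvae share no animal with those at 9 hpe. An unadjusted p below 0.05 at 1 hpe was found for 9 of the 97 and 5 of the 19, and for 1688 of all 14188 tested models, 11.9%. The count of 21 was 3 with the sets of alike larvae as a term, 1 with those from group means, 6 with the replicate number as a term, 4 with library totals, 1 with no filter on low counts and 102 with DESeq2. It was 3 to 11 without any one larva at 1 hpe, except 16, 15 and 18 without light replicate 5, dark replicate 4 and dark replicate 7.

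The light-to-dark difference itself changed between 1 and 9 hpe for 148 models, 1.04% of those tested, with 105 shifted upwards in light (0.74%) and 43 downwards (0.303%) (edgeR interaction test). Aqu2.1.32109_001 had a shift of 2.80 ± 0.27 SE in log2 fold change (edgeR adjusted p = 3.3e-09). At 1 hpe light larvae held 569 ± 210 CPM and dark larvae 565 ± 165 CPM (n = 7 each). At 9 hpe light larvae ran from 218 to 331 CPM with a median of 279, and dark larvae from 25.4 to 55.1 with a median of 39.2, without overlap. Day-night larvae went from 916 ± 168 CPM (n = 7) to 70.9 ± 9.24 CPM (n = 8). The shifts of the 4 models above were 7.995 ± 1.20 SE for Aqu2.1.21224_001, 3.87 ± 0.36 for Aqu2.1.32921_001, -4.88 ± 0.63 for Aqu2.1.40667_001 and -5.73 ± 1.10 for Aqu2.1.31817_001 (edgeR adjusted p = 0.000106, 3.3e-09, 3.27e-06 and 0.00466). The shifts of single models are from the main fit, and their values with the sets of alike larvae as a term are not given. With that term Aqu2.1.31817_001 was not called at 9 hpe (edgeR adjusted p = 0.239). The count of 148 fell to 10 with the set of alike larvae as a term and to 41 without light replicates 2, 3, 5 and 7. It was 86, 244 and 83 without light replicates 2, 5 and 7 at 9 hpe and 249, 74 and 97 without dark replicates 1, 4 and 7. Without light replicates 1, 2 and 3 at 1 hpe it was 75, 84 and 96, and without dark replicate 6 at 1 hpe 84.

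Each larva was also placed on the course that day-night larvae follow with age. The position is the mean log2 CPM of 1187 models that rose from 1 to 9 hpe minus that of 1344 models that fell, both taken from a fit of the 15 day-night larvae alone. On this axis day-night larvae stood at -2.11 ± 0.237 at 1 hpe (n = 7) and 0.00297 ± 0.121 at 9 hpe (n = 8), which the choice of models sets. Light larvae at 9 hpe stood at -0.76 ± 0.188 and ran from -0.95 to -0.41. Dark larvae stood at -0.49 ± 0.191 and ran from -0.84 to -0.24. Light larvae were thus less far along, by -0.27 (n = 7 each, exact permutation test, p = 0.0245 and 0.0368 after adjustment over 3 values), although the ranges overlapped. It was -0.22 for the fallen models alone (exact permutation p = 0.0134) and -0.05 for the risen models alone (exact permutation p = 0.164). Without light replicates 2, 3, 5 and 7 it was -0.27 (exact permutation p = 0.0667). Within the set that held both regimes, light replicate 4 stood at -0.71 and dark replicates 2 and 3 at -0.57 and -0.54.

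At 1 hpe the order was the reverse. Light larvae stood at -1.57 ± 0.122 and dark larvae at -1.84 ± 0.11 (n = 7 each, difference 0.28, exact permutation p = 0.00291, adjusted p = 0.00873). Between the ages light larvae moved by 0.81 and dark larvae by 1.355. The difference between these moves was -0.54 (exact two-sided permutation of regimes within each age, p = 0.000198, adjusted p = 0.000594 over 3 values). Without all 8 larvae of the set that holds light replicates 2, 3, 5 and 7 it was -0.53 (exact permutation p = 0.0025), and without the models called between light and dark at 9 hpe -0.54 (exact permutation p = 0.000214).

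**Figure D5:**
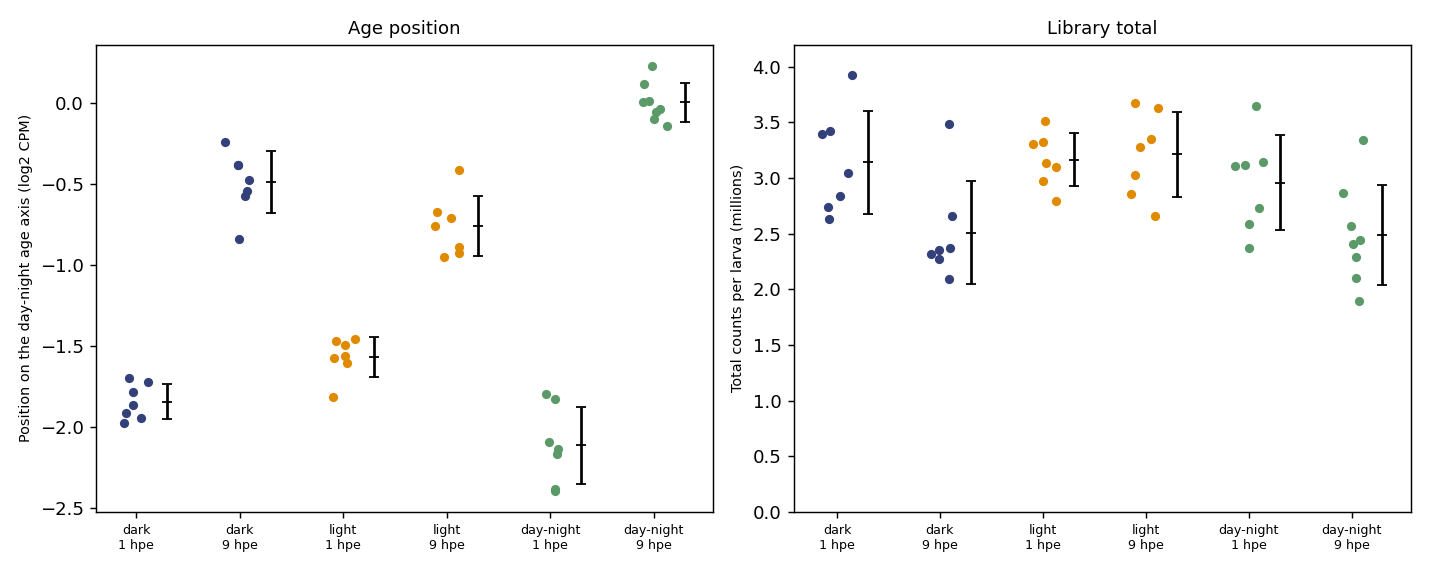
Position of each of the 43 larvae on the day-night age axis in log2 CPM (left) and total counts per larva in units of 1000000 (right), by regime and age, with the group mean and SD as a bar beside the points. Light larvae are ahead of dark larvae at 1 hpe and behind them at 9 hpe on the age axis, and dark larvae at 9 hpe have smaller totals than light larvae except replicate 7.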

How the data were processed

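RNA of single larvae was isolated with TRIzol and sequenced by CEL-Seq2 with multiplexing barcodes, per the labels' protocols. The authors deposited raw counts per transcript model and larva for 47411 models (44016 named Aqu2.1, 3395 named TCONS), with spike-in and bacterial features removed per the file name. Which aligner, counter, build and annotation were used is not given in the sources here, nor whether counting used strand. A second deposited table of scaled values was not used.

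Groups came from the titles. Models were filtered with filterByExpr by group (minimum count 10), which left 14188, scaled by TMM and fitted with edgeR 4.0.16 (R 4.3.3) with a mean for each of 6 groups over all 43 larvae, robust dispersions and the quasi-likelihood F test. Log2 CPM used a prior count of 2. Standard errors were the fold change divided by the root of its F value. Values per larva were compared by exact two-sided permutation over 3432 splits. Named models had to be called in the full fit and in every fit without 1 of the 14 larvae, at 20 CPM or more in the higher group, and were ranked by fold change, up to 2 per direction. For the change between ages they were ranked by p. The members, lists and rules were chosen with earlier results of these data known. Alternatives were DESeq2 1.42.0, limma 3.58.1 voom, other scalings and filters, thinning, fewer larvae, the replicate number and sets of alike larvae as terms. The age position and the sets from age-mean deviations were added after the counts were seen.

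The 42 pairs of larvae within a regime at 9 hpe all differed beyond sampling noise, with a chi-square of at least 11.6 times its degrees of freedom. As no parent or batch is labelled, a p-value covers only the spread among the larvae sampled. Near-identical or overlapping models can share reads and are uncertain.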

Additional observations from a re-analysis of the deposited data

Results flagged for a closer look

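The difference between light and dark larvae was not the same at 1 and 9 hpe. By the interaction test 148 models passed, and among the named ones the shift in log2 fold change was 7.995 for Aqu2.1.21224_001, 3.873 for Aqu2.1.32921_001, 2.798 for Aqu2.1.32109_001, -4.879 for Aqu2.1.40667_001 and -5.73 for Aqu2.1.31817_001. These are values of the main fit. With sets of alike larvae as a term, 9 models (group-mean deviations) and 10 models (age-mean deviations) passed. The position on the day-night age axis shifted by -0.5448 in light relative to dark (exact permutation, adjusted p = 0.000594).

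Single larvae stood apart from their group in 4 of 36 sets of values, by the gap between the last larva and the next as a share of the range. Chance gives about 1 in 20 if values are normally distributed, which values near 0, as for Aqu2.1.21224_001, need not be. Dark replicate 6 at 9 hpe held 3.61 CPM of Aqu2.1.21224_001, while the other dark larvae held at most 0.426. Day-night replicate 4 at 1 hpe held 2.42 CPM of the same model. Day-night replicate 7 at 9 hpe held 104 CPM of Aqu2.1.32921_001. Dark replicate 7 at 9 hpe had a total of 3485926 counts.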

How the results depend on the processing

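The 116 models called between light and dark at 9 hpe became 312 with DESeq2, 28 with only the 14 larvae in the fit, 47 with only the 22 larvae at 9 hpe, 20 and 24 with sets of alike larvae (from group-mean and age-mean deviations) as a term, and 59 without light replicates 2, 3, 5 and 7, which share a set. Leaving out single larvae gave 73 to 212. The 21 models at 1 hpe became 102 with DESeq2, 4 with library totals only, 1 with no filter on low counts, 10 when thinned, 1 and 3 with the sets as a term, and 3 to 18 without single larvae. The 148 models whose difference shifted between ages became 416 with DESeq2, 61 with no filter, 9 and 10 with the sets as a term, 41 without the 4 light larvae, and 74 to 249 without single larvae. With library totals they split into 51 higher and 76 lower, against 105 and 43 with TMM.

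With the replicate number as a term (replicate block) 95 models were called at 9 hpe, 6 at 1 hpe and 92 for the shift between ages. Larvae of the same number did not deviate together (r = -0.046 to 0.036 over 7 pairs, 0 light larvae correlating best with their own number). No pairing by number was thus seen, and the labels do not say what else these larvae share.

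The 68 models without overlap became 443 without the 4 light larvae, which leaves 3 against 7 larvae and so makes separation easier, and 81 to 139 without single larvae. The difference in models detected was 622.6, and -233.7 after thinning. Without single larvae it was 437 to 879.9, and without light replicate 7 its unadjusted p was 0.0449 (exact permutation). The age position difference at 9 hpe was -0.05388 for risen models only and -0.27 without the 4 light larvae, neither past the threshold. Without single larvae it was -0.33 to -0.23, with an exact permutation p of 0.00699 to 0.049. Those p-values were not adjusted, and the unadjusted p of the main test was 0.0245. The shift of the age position between ages and the totals had an exact permutation p below 0.05 in every alternative run. The highest was 0.0025 for the shift and 0.025 for the totals, and these p-values were not adjusted over 3 values. Aqu2.1.21224_001, Aqu2.1.32921_001 and Aqu2.1.40667_001 kept their call at 9 hpe in all 27 alternatives. Aqu2.1.31817_001 lost it in 4 of 26, with log2 fold changes of -4.77 to -3.82 in those fits against -4.26, and the cause was not tested. It did not pass the filter on low counts with only the 14 larvae in the fit. Thinned to the lowest total, 94 models were called at 9 hpe, 80 higher and 14 lower.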
